A study of Mus musculus with 36 samples.

Results

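The effect of PD03 was measured in mouse embryonic stem cells (mESCs) kept for 48 h on soft StemBond hydrogels in serum + LIF. The comparison set the 3 libraries from serum + LIF + PD03 against the 3 from serum + LIF, chosen by the group named in the header of each column of the count table. These were 6 of the 36 libraries of the series, and 17702 of the 49671 genes in the table had enough counts to be tested. All cells were wild-type mESCs of the 129m background, so the comparison describes 1 genotype. The series also held cells on stiff hydrogels and on tissue culture plastic, and cells in media without LIF. Of these, 3 libraries in serum + LIF + PD03 and 3 in serum + LIF on stiff hydrogels were used here for comparison, all at 48 h, as were 6 libraries in serum + PD03 and 3 in serum on soft hydrogels. StemBond hydrogels are polyacrylamide gels that hold extracellular matrix protein by covalent bonds.

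PD03 (PD0325901) blocks MEK, the kinase that phosphorylates and activates ERK. In mESCs, FGF4 made by the cells themselves signals through FGF receptors, RAS, RAF and MEK to ERK, and this pathway moves cells out of naive pluripotency and towards the state of the epiblast after implantation. The cytokine LIF acts through JAK kinases and STAT3 and sustains self-renewal. Active ERK also induces its own brakes, among them the Sprouty and Spred proteins and dual-specificity phosphatases, and the RNA of these brakes is a common readout of the pathway.

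The libraries with PD03 held 20526694, 20286106 and 18615832 counts and those without it 16204575, 16120462 and 15267817. Pearson's r of log2 CPM (counts scaled to library size, by TMM) lay between 0.9852 and 0.9896 within a group and between 0.9463 and 0.9503 across the groups. All 6 libraries shared a pool by their labels. The p-values rest on the spread within groups, estimated over all 36 libraries and not from these 6 alone. The labels did not say whether the libraries of a group came from separate cultures, so that spread may be technical. The mitochondrial share of the counts was 1.5% to 1.75% with PD03 and 1.10%, 0.626% and 1.44% without it, with serum + LIF library 2 the lowest. The markers of mESCs were present in all 6 libraries. Pou5f1, the core pluripotency factor OCT4, stood at 688, 681 and 623 CPM with PD03 and at 593, 611 and 565 CPM without it, and Sox2 at 325, 344 and 346 against 304, 289 and 287 CPM.

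Genes were called where the adjusted p of edgeR's quasi-likelihood test was under 0.05. In all, 9626 genes were called, which was 54.4% of those tested. Of these, 4915 were higher with PD03 (27.8%) and 4711 lower (26.6%). Among the 14617 protein-coding genes tested, 61.1% were called. The counts of called genes in the lists below are to be read against these shares. A change of at least 2-fold was found for 3217 called genes (18.2%), 1898 of them higher (10.7%) and 1319 lower (7.45%), whereas 45.7% of the called genes changed by less than 1.5-fold. At 4-fold or more there were 660 higher and 487 lower genes, and at 8-fold or more 248 and 177. The genes higher by 2-fold or more took 7.41% to 7.5% of the counts with PD03 and 2.58% to 2.65% without it, and the genes lower by 2-fold or more took 1.02% to 1.03% against 3.0% to 3.1%. The median log2 fold change over all tested genes was 0.00298. The 2-fold genes were spread over all autosomes and the X chromosome. Among these, the share of higher genes was highest on chromosome 6 (14.4%) and lowest on chromosome 17 (6.56%). In these bulk libraries, fewer cells of a type and less RNA per cell cannot be told apart.

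**Figure D1:**
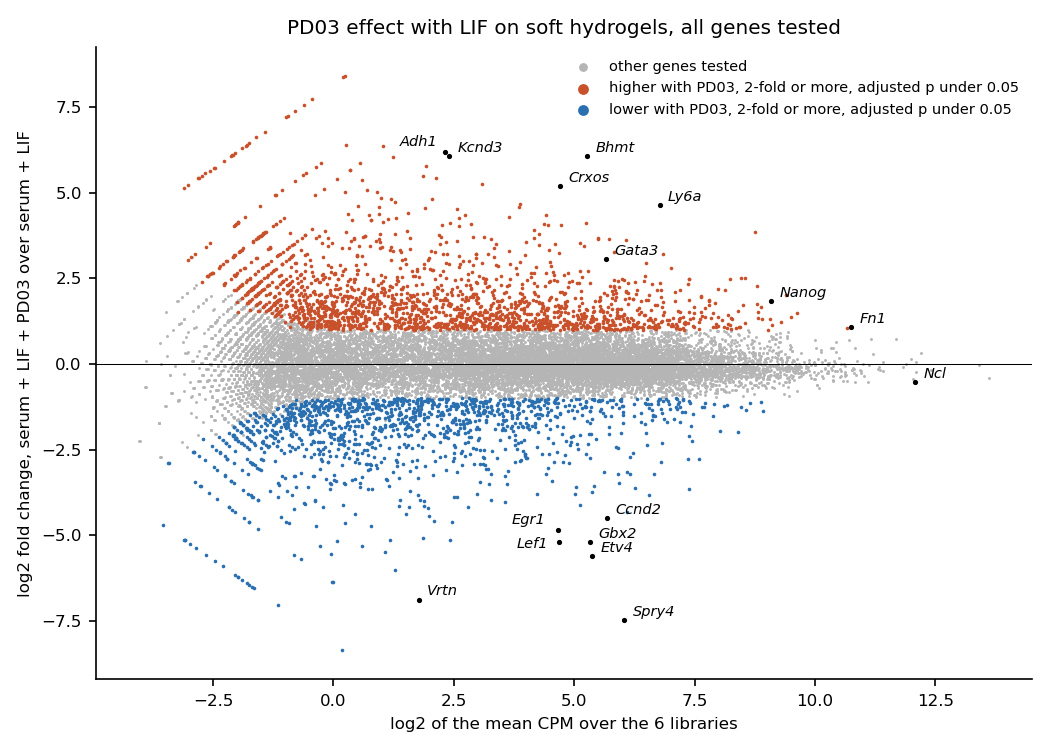
Change with PD03 against level for the 17702 genes tested, with the log2 of the mean CPM on the x axis and the log2 fold change (serum + LIF + PD03 over serum + LIF, soft, 48 h) on the y axis. The genes called with a 2-fold change or more lie on both sides, 1898 above and 1319 below, around a median of 0.00298.

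The feedback inhibitors of the pathway fell together. All 6 tested Sprouty and Spred genes were lower by 2-fold or more (background for 2-fold lower genes, 7.45%), with a median log2 fold change of -2.17. Spry4 (ENSMUSG00000024427, GRCm38 chr18:38586247-38601415, minus strand), which blocks signalling from receptor tyrosine kinases to RAS, had the largest fold change of all named genes. It stood at 0.826, 0.548 and 0.817 CPM with PD03 and at 130, 131 and 131 CPM without it, and the groups lay far apart. The log2 fold change was -7.48 ± 0.13 (SE derived from the test, adjusted p = 2.80e-41). For large changes at low counts such an SE is too small. Spred1, which brings neurofibromin to RAS, stood at 12.6, 10 and 12.2 CPM against 98.9, 113 and 112 CPM (log2 fold change -3.22 ± 0.08). Spry1, Spry2 and Spred3 fell by 2.29, 2.05 and 1.64 on the log2 scale and Spred2 fell by 1.02.

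The dual-specificity phosphatases did not move as 1 group. Of 11 tested, 5 were lower (background, 26.6%), 4 higher (background, 27.8%) and 2 not called. Dusp6, which removes phosphates from ERK itself, stood at 11.1, 11.1 and 9.32 CPM with PD03 and at 64.7, 77.5 and 68.9 CPM without it, with no overlap (log2 fold change -2.74 ± 0.10, adjusted p = 2.68e-29). Dusp4, a nuclear phosphatase of the same family, changed by -2.82 ± 0.13, and Dusp5, Dusp7 and Dusp9 by -0.91, -0.71 and -0.71. Dusp16, which acts mainly on the stress kinases JNK and p38, went the other way. It stood at 117, 115 and 115 CPM with PD03 and at 21.4, 23.1 and 23.2 CPM without it (log2 fold change 2.36 ± 0.07). Dusp8, Dusp14 and Dusp10 were also higher, by 2.28, 1.85 and 0.80. Dusp1 and Dusp2 were not called, with adjusted p-values of 0.202 and 0.0542.

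Among 18 transcription factors known to respond to ERK, 10 were lower (background, 26.6%), 5 higher (background, 27.8%) and 3 not called. Etv4 (ENSMUSG00000017724, chr11:101769742-101785371, minus strand), an ETS factor downstream of FGF, stood at 1.21, 2.04 and 1.69 CPM with PD03 and at 86.7, 80.6 and 75.4 CPM without it. Its groups did not overlap, and the log2 fold change was -5.62 ± 0.14 (adjusted p = 8.98e-36). Its relatives Etv1 and Etv5 changed less, by -1.11 ± 0.07 and -0.63 ± 0.05, and Etv5 remained at 264 to 268 CPM in every library with PD03. Egr1, an immediate-early zinc finger factor, stood at 1.6, 1.94 and 1.47 CPM against 53.7, 40.3 and 52.1 CPM (log2 fold change -4.85 ± 0.15). Myc (-2.76 ± 0.07) and Fosl1 (-1.92 ± 0.22) were lower as well. The AP-1 members Jun (1.24 ± 0.11) and Jund (0.85 ± 0.07) and the stress factor Atf3 (1.62 ± 0.27) were higher, while Fos was not called (0.47 ± 0.33, adjusted p = 0.229).

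**Figure D2:**
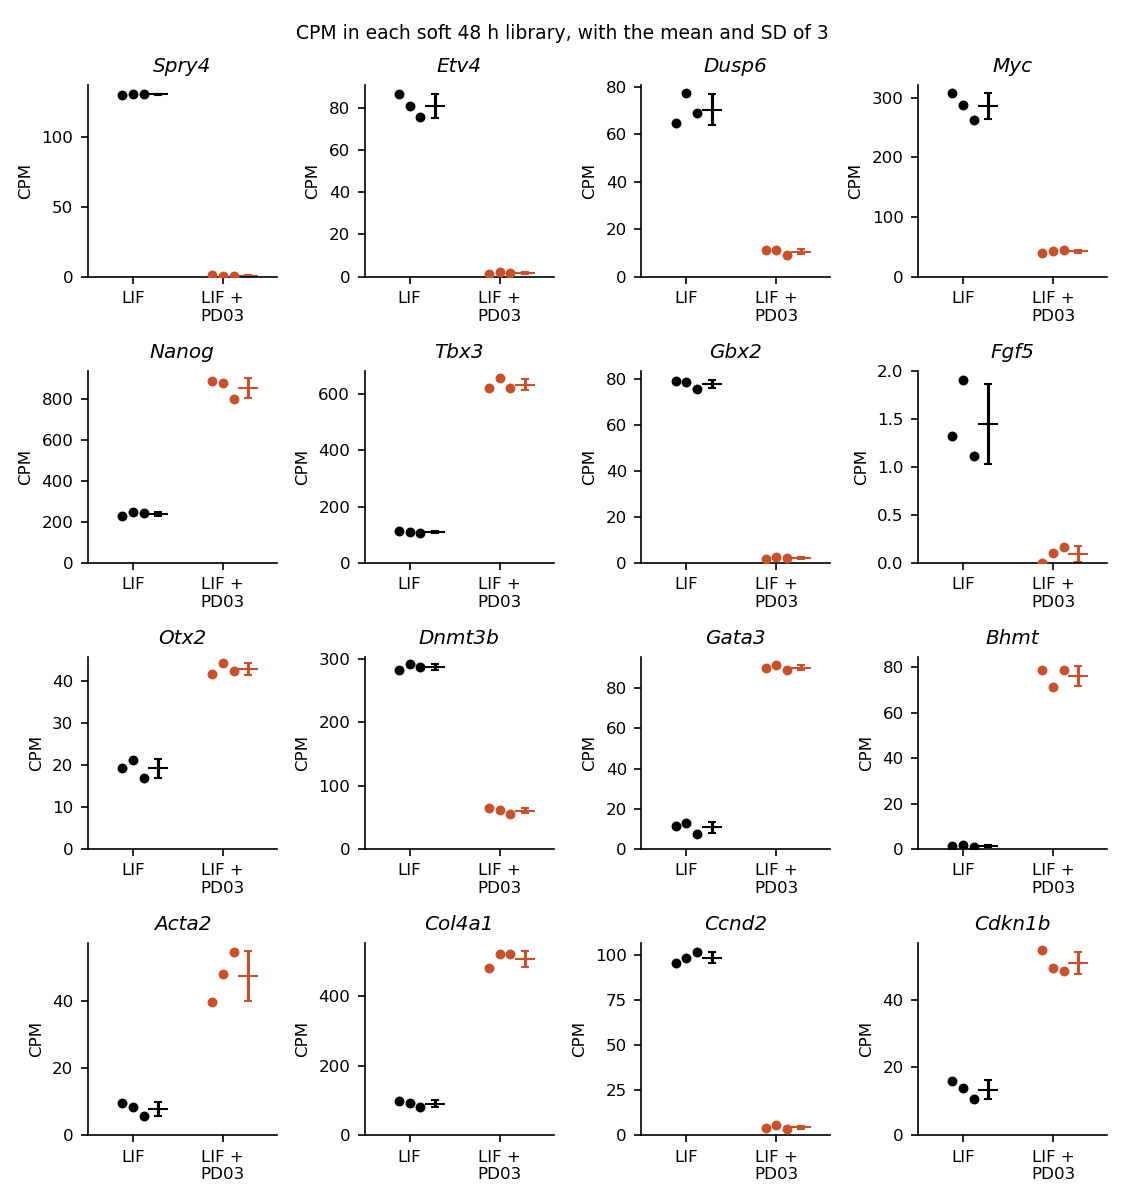
CPM of 16 genes in each of the 3 libraries in serum + LIF (black) and the 3 in serum + LIF + PD03 (orange), soft hydrogels, 48 h, with the mean and SD as bars and a y axis of its own for each gene that starts at 0. Spry4 was at 130 to 131 CPM in serum + LIF and under 1 CPM in each library with PD03, and Bhmt at 71.3 to 79 CPM with PD03 and at 0.785 to 1.52 CPM without it.

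The parts of the cascade itself moved in both directions. Of 30 genes from ligand to kinases, 12 were higher, 8 lower and 10 not called. The 66.7% called compares with 54.4% of all tested genes and 61.1% of the protein-coding ones. Of the 30, 3 were past 2-fold (background, 18.2%). The ligand Fgf4 was among those 3, with 344, 330 and 319 CPM with PD03 and 128, 138 and 125 CPM without it (log2 fold change 1.34 ± 0.06, adjusted p = 2.86e-25). The scaffold Ksr1 (1.11 ± 0.08) and the receptor Fgfr1 (0.92 ± 0.04) were higher. Map2k1, which encodes the MEK1 kinase that PD03 blocks, changed by 0.62 ± 0.08, and Map2k2, which encodes MEK2, was not called (0.03 ± 0.05, adjusted p = 0.696). The ERK gene Mapk3 fell by 0.43 on the log2 scale, Braf fell by 0.72 and Nras by 0.83.

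Of 19 growth factor and ephrin receptors other than FGF receptors, 12 were higher (background, 27.8%), 2 lower (background, 26.6%) and 5 not called. By 2-fold or more, 6 were higher (background, 10.7%) and 1 lower (background, 7.45%). All but Igf2r (0.38 ± 0.06), which has no kinase domain, are receptor tyrosine kinases. Kit, the stem cell factor receptor, stood at 234, 218 and 217 CPM with PD03 and at 53.6, 49.9 and 52.2 CPM without it, a log2 fold change of 2.10 ± 0.06. The neuregulin receptor Erbb3 (1.89 ± 0.07), its partner Erbb2 (1.28 ± 0.09) and the ephrin receptor Epha4 (1.39 ± 0.05) were higher too. Epha1 was lower, at 0.874, 1.54 and 1.25 CPM against 6.21, 8.70 and 6.54 CPM (-2.54 ± 0.20).

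Naive pluripotency factors were mostly higher with PD03. Of 15 tested, 11 were higher (background, 27.8%), 3 lower (background, 26.6%) and 1 not called. By 2-fold or more, 7 were higher (background, 10.7%), and the median log2 fold change was 0.71. Tbx3, a T-box factor of the naive network, stood at 624, 657 and 623 CPM with PD03 and at 115, 109 and 107 CPM without it. Its groups did not overlap, and the log2 fold change was 2.52 ± 0.05 (adjusted p = 2.00e-39). Nanog, which sustains self-renewal, stood at 889, 877 and 798 CPM against 228, 247 and 243 CPM (1.84 ± 0.06, adjusted p = 2.24e-31). Prdm14, Dppa3 and Tfcp2l1 were higher by 2.41, 2.02 and 1.66 and Klf2, Klf4 and Esrrb by 1.15, 0.71 and 0.33, while Zfp42 (REX1) was not called (-0.03 ± 0.06, adjusted p = 0.647).

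Gbx2, a homeobox gene that supports self-renewal, went against the rest of this group. It stood at 1.75, 2.34 and 2.23 CPM with PD03 and at 79.0, 78.7 and 75.6 CPM without it (log2 fold change -5.20 ± 0.10, adjusted p = 4.83e-40). The nuclear receptor Nr0b1 (DAX1) was at 45.1 to 49.3 CPM against 145 to 157 CPM (-1.64 ± 0.06), and Klf5 changed by -0.52 ± 0.06. These 3 lower members were separated between the groups, as were the 11 higher ones and 57.0% of all tested genes.

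The factors shared by naive and later pluripotent cells differed among themselves. Of 7, 3 were higher by small amounts (background, 27.8%), 3 were lower by 2-fold or more (background, 7.45%) and Dppa2 was not called. Pou5f1 changed by 0.17 ± 0.07 (adjusted p = 0.0276), Sox2 by 0.21 ± 0.04 and Sall4 by 0.46 ± 0.05. The call of Pou5f1 ended under upper quartile scaling (adjusted p = 0.0740) and without serum + LIF + PD03 library 1 or 2 or serum + LIF library 1 or 3 (adjusted p up to 0.162). Utf1, a chromatin factor of pluripotent cells, stood at 131, 140 and 142 CPM against 585, 549 and 493 CPM (-1.98 ± 0.06), and Lin28a, which blocks the maturation of let-7 microRNAs, changed by -1.17 ± 0.05.

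Formative genes, which mark the early epiblast after implantation, fell. Of 12 tested, 10 were lower (background, 26.6%) and 2 higher (background, 27.8%), and 9 were lower by 2-fold or more (background, 7.45%). The groups did not overlap for any of the 12, against 57.0% of all tested genes without overlap. Pou3f1 (OCT6) stood at 3.79, 4.18 and 3.81 CPM with PD03 and at 43.5, 43.4 and 40 CPM without it (-3.43 ± 0.12). Lef1, a nuclear partner of beta-catenin, stood at 1.07, 1.49 and 1.53 CPM against 47.8, 48.2 and 53.5 CPM (-5.19 ± 0.14), and Tcf15 at 8.50, 11.2 and 10.4 CPM against 96.9, 87 and 82.9 CPM (-3.15 ± 0.10). Fgf5 was low throughout, with 0, 0.0996 and 0.163 CPM against 1.32, 1.91 and 1.11 CPM (-3.98 ± 0.55). The exception by size was Otx2, a homeobox factor of the formative state, which was higher. It stood at 41.6, 44.4 and 42.4 CPM with PD03 and at 19.3, 21.3 and 16.9 CPM without it (1.16 ± 0.09, adjusted p = 2.75e-15).

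The clusters of epiblast genes that the study took from mouse embryos, and so not from these samples, were counted in the same way. Of 197 tested genes of the post-implantation cluster, 128 were lower (background, 26.6%), 31 higher (background, 27.8%) and 38 not called. By 2-fold or more, 63 were lower (background, 7.45%) and 5 higher (background, 10.7%), and the median log2 fold change was -0.56. Of 137 tested genes of the pre-implantation cluster, 59 were higher (background, 27.8%), 40 lower (background, 26.6%) and 38 not called. By 2-fold or more, 20 were higher (background, 10.7%) and 17 lower (background, 7.45%), and the median was 0.13. Etv4 and Trh, the precursor of thyrotropin-releasing hormone, belong to the second cluster and were among its lowest. Trh stood at 5.39, 6.48 and 7.79 CPM against 134, 120 and 135 CPM (-4.31 ± 0.12). Hesx1, a homeobox gene of the same cluster, changed by 4.05. In the post-implantation cluster, Vrtn had 3 counts over the libraries with PD03 and 319 over those without it. Scaled to raw library totals, without TMM, the ratio was 133 (exact 95% interval 45.0 to 647, counting error only). The fold change of the fit was 118.

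**Figure D3:**
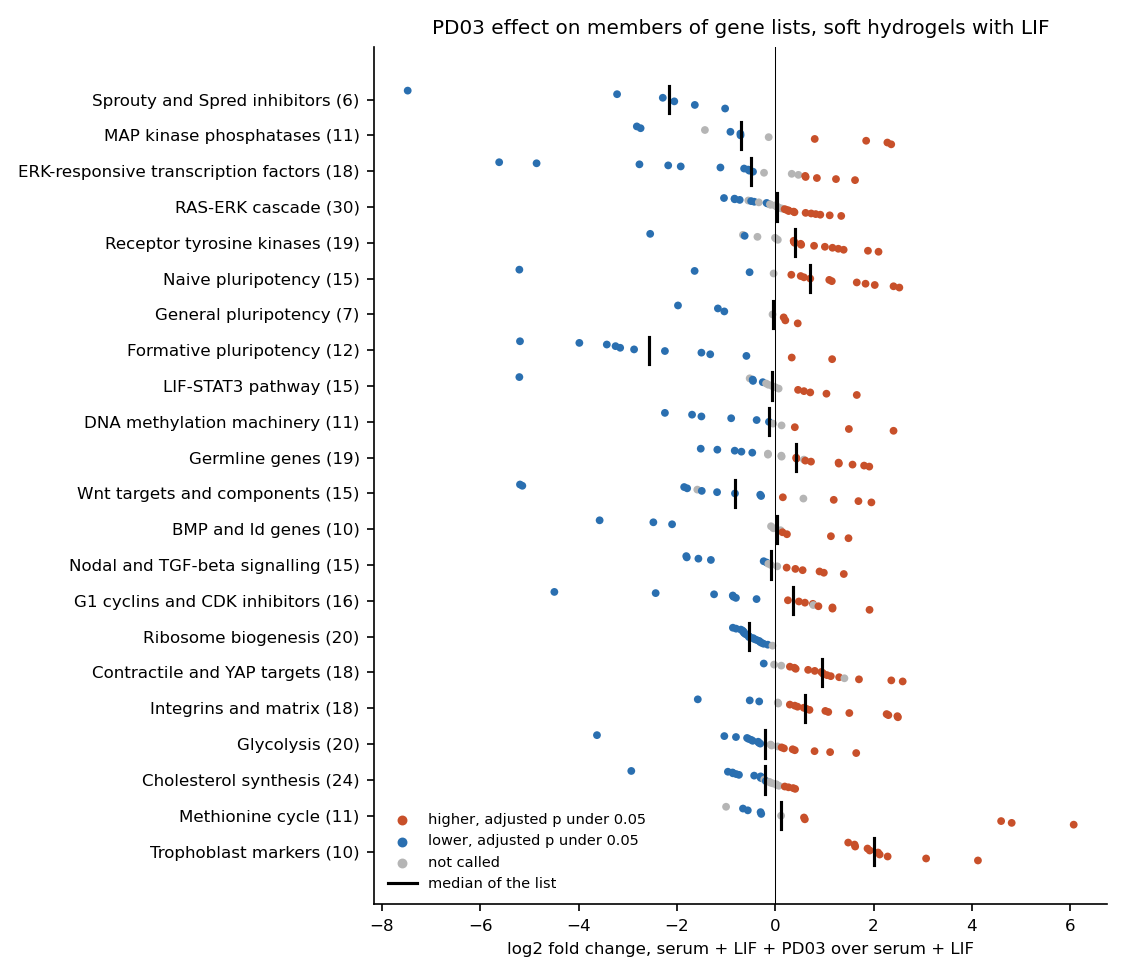
Log2 fold change with PD03 (x axis) of each tested gene in 22 gene lists (1 row per list, 1 dot per gene, with a bar at the median). The Sprouty and Spred genes (median -2.17) and the formative genes (-2.56) lie to the left and the trophoblast markers (2.01) to the right, while the genes of the RAS-ERK cascade (0.0445) lie on both sides of 0. The row of receptor tyrosine kinases includes Igf2r, which has no kinase domain.

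The enzymes that place new methyl groups on DNA were lower with PD03. The list of 11 genes of DNA methylation holds these enzymes, their cofactors, the TET enzymes and the regulator Prdm14. Of the 11, 6 were lower (background, 26.6%) and 2 not called. The 3 higher ones (background, 27.8%) were Prdm14, Tet2 and Uhrf2. Dnmt3b stood at 64.0, 61.8 and 55.6 CPM with PD03 and at 282, 291 and 287 CPM without it (-2.24 ± 0.07, adjusted p = 1.21e-32). Dnmt3a (-1.5 ± 0.06) and the cofactor Dnmt3l (-1.69 ± 0.07) were lower too, and the maintenance enzyme Dnmt1 was not called (-0.04 ± 0.04, adjusted p = 0.427). Of the TET enzymes, which oxidise the methyl group, Tet2 was higher (1.5 ± 0.06) and Tet1 lower (-0.38 ± 0.06). Germline genes, many of which are silenced by promoter methylation in other cells, were divided. Of 19, 9 were higher (background, 27.8%), 5 lower (background, 26.6%) and 5 not called. Dazl (1.29 ± 0.11) was among the higher and Ddx4 (-1.18 ± 0.12) among the lower. Tuba3a, Tuba3b and Rpl10l of this list have near-identical copies, and their counts are uncertain. The Zscan4 genes of the 2-cell-like state are such copies as well. Of 8 genes tested in that list, 5 were lower (background, 26.6%), none higher and 3 not called. The summed level was 2.67 to 3.49 CPM with PD03 and 7.11 to 12.8 CPM without it.

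Both groups received LIF. Of 15 genes of its pathway, 5 were higher (background, 27.8%), 4 lower (background, 26.6%) and 6 not called. The share called lay between that of all tested genes (54.4%) and that of the protein-coding ones (61.1%). The receptor genes Lifr (-0.06 ± 0.04, adjusted p = 0.245) and Il6st (0.07 ± 0.05, adjusted p = 0.224) were not called, Stat3 changed by -0.25 ± 0.06 and its feedback inhibitor Socs3 by -0.46 ± 0.07. The 3 members past 2-fold were Tfcp2l1, Gbx2 and Jak2 (1.04 ± 0.16), of which the first and second also belong to the naive group.

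In the BMP pathway the ligand Bmp4 stood at 5.63, 6.53 and 7.79 CPM with PD03 and at 86.6, 77.2 and 72.5 CPM without it (-3.57 ± 0.11). The inhibitors of differentiation Id1 (-2.48 ± 0.12) and Id3 (-2.10 ± 0.08), which BMP signals induce, were lower, and Id4 was higher (1.49 ± 0.16). Over the whole list of 10 genes, 4 were higher (background, 27.8%), 3 lower (background, 26.6%) and 3 not called. Of 15 genes of Nodal and TGF-beta signalling, 6 were higher (background, 27.8%), 6 lower (background, 26.6%) and 3 not called. Nodal changed by 0.56 ± 0.07 and its antagonist Lefty1 by -1.81 ± 0.11.

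Of 15 Wnt targets and components, 9 were lower (background, 26.6%), 4 higher (background, 27.8%) and 2 not called. Sp5, a zinc finger gene induced by beta-catenin (ENSMUSG00000075304, chr2:70474923-70477729, plus strand), stood at 0.194, 0.299 and 0.381 CPM with PD03 and at 9.34, 11.6 and 10.4 CPM without it (-5.14 ± 0.28, adjusted p = 1.08e-21). Axin2, the usual feedback target of the pathway, changed less (-0.82 ± 0.08), and Ctnnb1, which encodes beta-catenin, stood at 497 to 552 CPM against 446 to 496 CPM (0.16 ± 0.05). The repressor Tcf7l1 (1.19 ± 0.05) and the secreted antagonist Dkk1 (1.96 ± 0.15) were higher. The promoter of Sp5 is shown because it was the only one of the 18 promoter windows of this list (11 genes) with the TCF/LEF motif CTTTGAT on either strand, against 3.73% of all 32851 windows. The window runs from 250 bases before to 50 bases after the start of the gene (RefSeq, GRCm38.p6), 5′ to 3′, with the motif in capitals from -104 to -98.
Sp5, chr2:70474673-70474972, plus strand: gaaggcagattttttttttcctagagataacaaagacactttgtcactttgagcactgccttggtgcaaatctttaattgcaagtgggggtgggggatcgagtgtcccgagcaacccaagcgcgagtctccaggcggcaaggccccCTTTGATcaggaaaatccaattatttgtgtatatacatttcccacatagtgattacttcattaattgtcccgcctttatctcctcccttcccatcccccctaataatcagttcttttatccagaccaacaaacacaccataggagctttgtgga
A match of letters is a description and not evidence of binding.

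The genes that govern entry into S phase changed with PD03 in both directions. Of 16, 8 were higher (background, 27.8%), 7 lower (background, 26.6%) and 1 not called. Ccnd2 (cyclin D2, ENSMUSG00000000184) stood at 4.08, 5.38 and 3.6 CPM with PD03 and at 95.7, 98.0 and 102 CPM without it. The log2 fold change was -4.49 ± 0.09 (adjusted p = 1.75e-38). Ccnd1 (-1.24 ± 0.05) and the kinase Cdk6 (-2.43 ± 0.08) were lower, and Ccnd3 was higher (0.77 ± 0.06). The CDK inhibitor Cdkn1b (p27) stood at 54.6, 49.5 and 48.4 CPM against 15.9, 13.9 and 10.5 CPM (1.92 ± 0.09), and Cdkn1a (p21) and Cdkn2a were higher by 1.16 each. Cdkn1c (p57) was lower (-0.86 ± 0.08). Of 12 genes of the Myc network, 4 were higher (background, 27.8%), 5 lower (background, 26.6%) and 3 not called. Myc stood at 39.2, 42.3 and 45.2 CPM with PD03 and at 308, 288 and 263 CPM without it, Mycn changed by -0.83 ± 0.04 and Mycl by 1.74 ± 0.11.

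Nucleolar factors that make ribosomes were lower by less than 2-fold. Of 20, 19 were lower and none was higher, with a median log2 fold change of -0.53. The background for lower genes was 26.6%. Nolc1 changed by -0.86 ± 0.05, Heatr1 by -0.80 ± 0.05 and Ncl (nucleolin) by -0.53 ± 0.04, and Ubtf was not called (adjusted p = 0.318). Under upper quartile scaling, which shifted the median of all genes by the most, 19 of these genes were still lower with a median of -0.57. By difference in mean CPM, Ncl, Npm1, Kpnb1, Pabpc1 and Hsp90ab1 were the 5 genes with the largest falls. Ncl stood at 3357 to 3782 CPM with PD03 and at 4984 to 5163 CPM without it. Fn1, Eif2s2 and Actb were among the 5 with the largest rises, and Eif2s2, a subunit of the initiation factor that carries the first tRNA to the ribosome, changed by 1.04 ± 0.04.

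The BCL2 family also moved on both sides. Of 15, 7 were lower (background, 26.6%), 3 higher (background, 27.8%) and 5 not called. Bcl2l11 (BIM), a killer protein that ERK is known to restrain, stood at 14.2, 13.8 and 14 CPM with PD03 and at 39.8, 38 and 37.3 CPM without it (-1.45 ± 0.07). Its relative Bik was higher (2.33 ± 0.24) and the survival factor Mcl1 lower (-0.51 ± 0.05).

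Genes of the actin and contractile apparatus and targets of the mechanically regulated factors SRF and YAP were mostly higher. Of 18 tested, 14 were higher (background, 27.8%), 1 lower (background, 26.6%) and 3 not called. By 2-fold or more, 6 were higher (background, 10.7%), and the median log2 fold change was 0.95. The study had picked 6 of them (Acta1 and Acta2, Cnn1, Tagln, Thbs1 and Flnc) as examples from these samples, so for those the count is not independent evidence of direction. Acta2 (smooth muscle actin) stood at 39.7, 48.1 and 54.5 CPM with PD03 and at 9.59, 8.25 and 5.62 CPM without it (2.59 ± 0.14, adjusted p = 4.83e-22). Acta1 (2.36 ± 0.15), the myosin light chain gene Myl9 (1.70 ± 0.09), Amotl2 (1.30 ± 0.07) and Cnn2 (calponin 2, 1.05 ± 0.06) were higher, and the YAP targets Ccn1 and Ccn2 were higher by 0.97 and 0.98. Flnc (filamin C) was the lower gene (-0.23 ± 0.07), but its groups overlapped and its call (adjusted p = 0.00648) ended without serum + LIF + PD03 library 1 (-0.17, adjusted p = 0.0757) or serum + LIF library 1 (-0.18, adjusted p = 0.0769). Cnn1, Ankrd1 and Thbs1 were not called.

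The promoters of Myl9, Cnn2 and Vcl (vinculin, 0.80 ± 0.05) are shown because they hold the CArG box, the element that SRF binds. The box was found in 5 of 16 windows of the list (31.2%, 15 genes), in Acta1, Cnn2, Myl9, Srf and Vcl, against 1.35% of the 15284 windows of all tested genes and 1.97% of those of the genes higher by 2-fold or more. It was also in 1.63% of all windows of the table. The list was made up of contractile genes and targets of SRF and YAP, so an excess of the SRF element was built in. The share in the list therefore says nothing about the effect of PD03. The windows are written 5′ to 3′ (RefSeq, GRCm38.p6), with the CArG box in capitals at -161 to -152, -56 to -47 and -227 to -218 from the start.
Myl9, chr2:156775214-156775513, plus strand: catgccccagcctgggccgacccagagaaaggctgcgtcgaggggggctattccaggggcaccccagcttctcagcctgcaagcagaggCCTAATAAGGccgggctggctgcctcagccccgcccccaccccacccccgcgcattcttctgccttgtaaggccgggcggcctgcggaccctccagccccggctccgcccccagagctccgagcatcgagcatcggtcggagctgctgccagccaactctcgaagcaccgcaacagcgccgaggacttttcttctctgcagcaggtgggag
Cnn2, chr10:79988350-79988649, plus strand: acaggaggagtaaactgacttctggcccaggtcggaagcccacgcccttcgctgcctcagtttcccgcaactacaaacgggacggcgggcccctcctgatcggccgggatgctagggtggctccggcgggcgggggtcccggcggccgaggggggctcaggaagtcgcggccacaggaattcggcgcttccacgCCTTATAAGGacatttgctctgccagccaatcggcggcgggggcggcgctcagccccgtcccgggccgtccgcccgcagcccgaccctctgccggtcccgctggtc
Vcl, chr14:20929148-20929447, plus strand: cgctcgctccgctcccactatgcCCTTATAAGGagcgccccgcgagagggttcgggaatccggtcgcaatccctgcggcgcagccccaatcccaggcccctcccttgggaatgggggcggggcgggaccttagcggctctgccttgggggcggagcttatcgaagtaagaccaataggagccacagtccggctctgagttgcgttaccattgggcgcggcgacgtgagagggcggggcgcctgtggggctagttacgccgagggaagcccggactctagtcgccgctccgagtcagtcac
The CArG box was also in 5 of the 34 windows (14.7%) of the feedback genes and ERK-responsive factors, in Dusp5 and Egr2, and in 2 of the 18 windows (11.1%) of the Wnt list, in Lef1 and Tcf7. The ETS motif CCGGAAG was in none of those 34 windows (26 genes), against 15.5% of the windows of all tested genes, which says only that these letters are not in those windows.

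Matrix and adhesion genes were mostly higher with PD03. Of 18, 13 were higher (background, 27.8%), 3 lower (background, 26.6%) and 2 not called. By 2-fold or more, 7 were higher (background, 10.7%) and 1 lower (background, 7.45%). Col4a1 (collagen IV), a main part of basement membranes, stood at 481, 522 and 522 CPM with PD03 and at 99.0, 93.2 and 80.1 CPM without it (2.49 ± 0.06, adjusted p = 6.98e-37). Its partner Col4a2 (2.5 ± 0.06), the linker Nid1 (2.27 ± 0.05) and Sparc (1.51 ± 0.06) were higher, as was Fn1 (fibronectin), with 2225 to 2402 CPM against 1068 to 1138 CPM (1.08 ± 0.05). Among integrins, which bind matrix at the cell surface, Itgb3 (2.30 ± 0.12) and Itgav (1.02 ± 0.06) were higher, and Itgb1 (-0.33 ± 0.05), Itga3 (-0.52 ± 0.07) and Itga1 (-1.58 ± 0.34) were lower. Of 14 epithelial and mesenchymal genes, 6 were higher (background, 27.8%), 6 lower (background, 26.6%) and 2 not called. The keratins Krt8 (1.95 ± 0.08) and Krt18 (2.16 ± 0.07) were higher and Epcam (-1.73 ± 0.06) and Vim (-1.14 ± 0.05) lower.

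Among the members of the metabolic gene lists, the largest rises were those of 3 genes side by side on chromosome 13, around the enzyme that passes a methyl group from betaine to homocysteine. Bhmt (betaine-homocysteine methyltransferase, ENSMUSG00000074768, chr13:93616675-93637961, minus strand) stood at 78.7, 71.3 and 79.0 CPM with PD03 and at 1.07, 1.52 and 0.785 CPM without it. The log2 fold change was 6.07 ± 0.16 (adjusted p = 2.48e-34). Its neighbour Bhmt2 (chr13:93655720-93674302, minus strand) stood at 7.82, 8.02 and 8.01 CPM against 0.0627, 0.508 and 0.262 CPM (4.81 ± 0.31), and Dmgdh (dimethylglycine dehydrogenase, chr13:93674433-93752833, plus strand), which breaks down the product of the same reaction, at 30.5, 25.6 and 27.6 CPM against 2.01, 0.889 and 0.523 CPM (4.60 ± 0.19). The starts of Bhmt and Dmgdh are 36472 bases apart. Bhmt, Bhmt2 and Dmgdh were the only members of the methionine cycle list higher by 2-fold or more. Over the 11 genes tested, 5 were higher (background, 27.8%), 4 lower (background, 26.6%) and 2 not called. The starts of Bhmt2 and Dmgdh in RefSeq are 134 bases apart on opposite strands, so that their 300-base windows share 233 bases. The window of Dmgdh (GRCm38.p6, 5′ to 3′) is shown as the stretch from which both genes start, and it held none of the 4 motifs searched, which were the 3 named above and the AP-1 motif TGANTCA.
Dmgdh, chr13:93674186-93674485, plus strand: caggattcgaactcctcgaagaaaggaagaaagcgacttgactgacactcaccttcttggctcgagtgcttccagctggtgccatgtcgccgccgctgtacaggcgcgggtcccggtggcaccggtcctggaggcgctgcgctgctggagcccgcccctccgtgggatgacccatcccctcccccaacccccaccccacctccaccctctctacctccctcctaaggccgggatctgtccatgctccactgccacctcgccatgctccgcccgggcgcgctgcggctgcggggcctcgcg

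The glycolysis genes were divided, with 10 lower (background, 26.6%), 7 higher (background, 27.8%) and 3 not called of 20. Pdk1, a mitochondrial kinase that inhibits pyruvate dehydrogenase, stood at 12.2, 12.1 and 9.92 CPM with PD03 and at 136, 144 and 144 CPM without it (-3.63 ± 0.08). Ldha (-0.80 ± 0.05) and the lactate exporter Slc16a3 (-1.04 ± 0.08) were lower, and Hk1 (1.65 ± 0.06) and Ldhb (1.12 ± 0.06) were higher. Of 10 genes of fatty acid binding and oxidation, 6 were higher (background, 27.8%), 2 lower (background, 26.6%) and 2 not called. Acaa2 (2.26 ± 0.08), Fabp3 (1.67 ± 0.06) and Acadm (1.34 ± 0.07) were in the lead. Of 24 genes of cholesterol synthesis, 12 were lower (background, 26.6%), 4 higher (background, 27.8%) and 8 not called. Idi1 (-0.96 ± 0.08) and Dhcr7 (-0.87) were among the lower. Of 20 genes of the ATF4 response and serine synthesis, 9 were higher (background, 27.8%), 7 lower (background, 26.6%) and 4 not called. Cth (1.57) and Asns (1.23) were higher and Phgdh (-0.93) lower.

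Of the 13 protein-coding genes of the mitochondrial genome, 8 were higher (background, 27.8%), none lower (background, 26.6%) and 5 not called. mt-Co1 stood at 4254, 3917 and 4194 CPM with PD03 and at 2452, 1427 and 3532 CPM without it (0.74 ± 0.17, adjusted p = 1.62e-04). Here serum + LIF library 2, the library with the low mitochondrial share, was the lowest. Without that library 2 of the 13 were called, and 5 were called under DESeq2, under upper quartile scaling or without serum + LIF + PD03 library 3. These genes have nuclear copies that can share reads, and their counts are uncertain.

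Markers of other cell types were checked, and 1 set moved as a whole. All 10 trophoblast markers were higher, each by 2-fold or more (background for 2-fold higher genes, 10.7%), with a median log2 fold change of 2.01. Their summed level was 237.1 to 255 CPM with PD03 and 43.8 to 59.8 CPM without it. Gata3, a factor of the trophoblast lineage, stood at 90.1, 91.5 and 88.9 CPM against 11.5, 13 and 7.65 CPM (3.07 ± 0.09, adjusted p = 1.14e-32). Plac1, a placental membrane protein gene, stood at 12.2, 7.62 and 10.5 CPM against 0.314, 1.14 and 0.262 CPM (4.12 ± 0.27). The groups did not overlap for 9 of the 10 (background, 57.0% of all tested genes). Of the defining factors, Cdx2 stood at 7.62, 6.28 and 5.99 CPM against 2.51, 2.60 and 1.31 CPM (1.63 ± 0.22), and Elf5 stayed near 0, at 0.534, 0.199 and 0.708 CPM against 0, 0.0635 and 0.262 CPM. Elf5 was the gene that overlapped (2.09 ± 0.80, adjusted p = 0.0241), and its call ended without serum + LIF library 1 or 2 or without serum + LIF + PD03 library 1 or 3. Whether these genes were expressed in mESCs or in a few cells of another type was not tested.

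**Figure D4:**
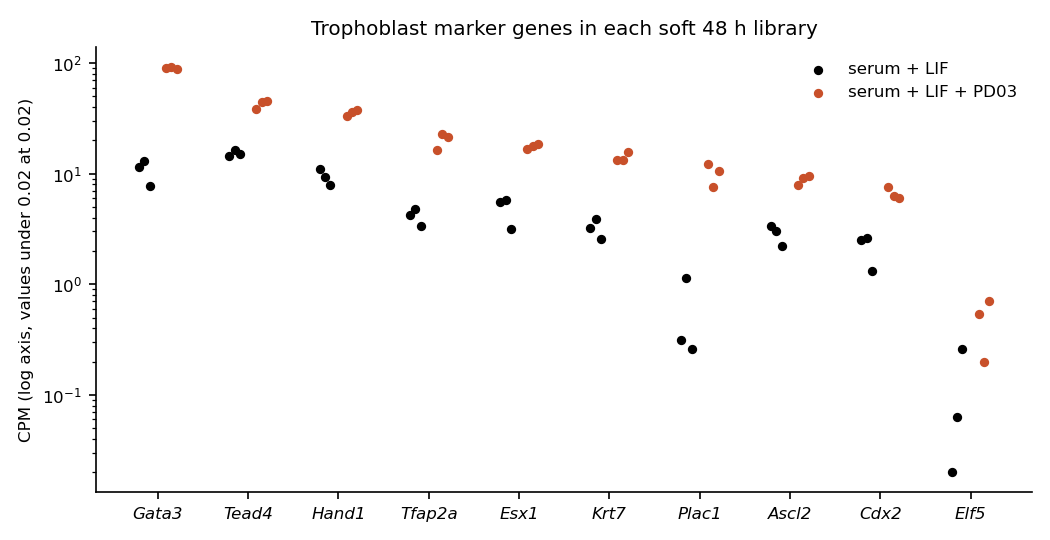
CPM (log axis, values under 0.02 drawn at 0.02) of 10 trophoblast markers in the 3 libraries in serum + LIF (black) and the 3 in serum + LIF + PD03 (orange), soft hydrogels, 48 h. The libraries with PD03 lie above the others for 9 of the 10 markers, and for Elf5, the lowest, the groups overlap.

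The other marker sets were mixed, and are read against backgrounds of 27.8% higher and 26.6% lower. Of the primitive endoderm and mesoderm markers, 54.5% and 44.4% were called, near or below the 54.4% of all tested genes. Primitive endoderm markers summed to 346.2 to 367.9 CPM with PD03 and to 282.9 to 291.7 CPM without it, and 2 of 11 were higher, 4 lower and 5 not called. Lrp2 and Dab2 were the higher ones, while the lineage factors Gata4 (-0.82 ± 0.19) and Sox7 (-2.31 ± 0.19) were lower and Gata6 was not called (adjusted p = 0.900). Mesoderm and streak markers summed to 10.3 to 11.6 CPM against 18.4 to 22.6 CPM. Of 9, 3 were lower, 1 higher and 5 not called, with brachyury (T) at 0.291, 0.399 and 0.218 CPM against 4.83, 7.05 and 4.97 CPM (-4.17 ± 0.36) and Gsc at 3.20, 3.84 and 4.09 CPM against 0.251, 0.0635 and 0.131 CPM (4.57 ± 0.49). Neural markers summed to 137.3 to 146.6 CPM against 144.7 to 148.3 CPM. Of 7, 4 were lower, 1 higher and 2 not called, with Pax6 at 4.33 to 5.12 CPM against 35.2 to 42.8 CPM. Fibroblast markers summed to 35.9 to 50.1 CPM with PD03 and to 29.2 to 33.6 CPM without it, with 4 of 8 higher, 2 lower and 2 not called. Of these, Col1a1 stood at 22.8, 27.7 and 35.1 CPM against 15.1, 15.6 and 9.81 CPM, and Dcn had 1 count against 27 (a ratio of 33.7 in favour of serum + LIF, exact 95% interval 5.56 to 1380).

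Some genes outside these lists had changes as large as those of the pathway's own targets. Of the 12 named genes with the largest rises, Adh1, an alcohol dehydrogenase, had 582 counts with PD03 and 6 without it (6.20 ± 0.38). Crxos, a homeobox gene, stood at 51.6, 51.2 and 49.5 CPM against 1.63, 0.889 and 1.64 CPM (5.19 ± 0.16), and Ly6a (SCA1), a surface protein of stem and progenitor cells, at 223, 195 and 214 CPM against 8.21, 10.1 and 6.80 CPM (4.65 ± 0.11). The potassium channel Kcnd3 (6.07), Cd4 (5.79), Klk7 (5.50), Fbln5 (5.43), Vnn1 (5.25) and Itga11 (4.55) completed that set with the Bhmt cluster. Among the largest falls, Jph4 (-4.62), the ascorbate transporter Slc23a1 (-4.57) and the Notch ligand Dll1 (-4.45) stood beside genes already described.

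The effect of PD03 on stiff hydrogels in the same medium was set beside that on soft ones. The comparisons share no library, but the soft and stiff libraries at 48 h came from different pools (stiff, pool 2, with 1 library in pool 1), so substrate and pool cannot be told apart. Of the 3217 genes with a 2-fold change on soft hydrogels, 3173 had the same sign on stiff ones and 44 the opposite sign. Agreement in sign over all tested genes was not counted. The difference between the effects was called for 1.07% of all genes by edgeR's interaction test, with a smaller or more negative effect on soft for 0.949% and a larger or more positive effect for 0.119%. Without the soft serum + LIF library 2, 114 genes were called in place of 189.

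Read against that 0.949%, the difference was called more than once in the contractile list and in other lists. In the epithelial and mesenchymal list the effect was smaller or more negative on soft hydrogels for 4 of 14 genes. These were Epcam, Zeb2, Krt8 and Krt18. In the post-implantation cluster it was so for 9 of 197 genes, with the reverse for 3. For 8 of the 18 genes of the contractile list the effect was smaller or more negative on soft hydrogels, and for none larger. The count was 7 to 10 in each alternative, and 7 without the soft serum + LIF library 2. Acta2 had a log2 fold change of 2.59 on soft and 3.72 on stiff hydrogels (difference -1.13 ± 0.20, adjusted p = 2.98e-04). Flnc had 40.5, 47.6 and 44.8 CPM with PD03 and 56.7, 53.9 and 45.5 CPM without it on soft hydrogels, and 146, 142 and 139 CPM against 75.2, 74.0 and 84.9 CPM on stiff ones (difference -1.10 ± 0.10, adjusted p = 7.48e-11), with soft groups that overlapped. Cnn1 (0.12 on soft, 1.57 on stiff), Thbs1 (-0.02 and 0.81), Tagln (1.13 and 2.10), Tpm2 (0.39 and 0.99), Cnn2 (1.05 and 1.58) and Tpm1 (0.94 and 1.29) made up the rest. Of these 8, Cnn1, Acta2, Thbs1, Flnc and Tagln had been picked by the study from the same samples. Outside the list, Lrp2, an endocytic receptor, changed by 0.33 on soft and 1.24 on stiff hydrogels (difference -0.91 ± 0.08, adjusted p = 4.82e-11), and Amot, a scaffold that binds YAP, by -0.06 and 0.95.

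The feedback inhibitors gave no call for this difference. Spry4 had a log2 fold change of -7.48 on soft and -7.82 on stiff hydrogels (adjusted p of the difference 0.846), Etv4 of -5.62 and -6.27, Dusp6 of -2.74 and -3.15, and Nanog of 1.84 on both. An adjusted p above the threshold does not show that these effects were equal. Of the trophoblast markers, the difference was called for Hand1 (1.92 on soft, 2.55 on stiff) and Esx1 (1.88 and 2.74). Utf1 was 1 of the few with a less negative effect on soft (-1.98 against -2.33, difference 0.35 ± 0.08, adjusted p = 0.00734), a call that ended without the soft serum + LIF library 3, the soft serum + LIF + PD03 library 2 or 3, or library 2 of either stiff group (adjusted p up to 0.103).

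**Figure D5:**
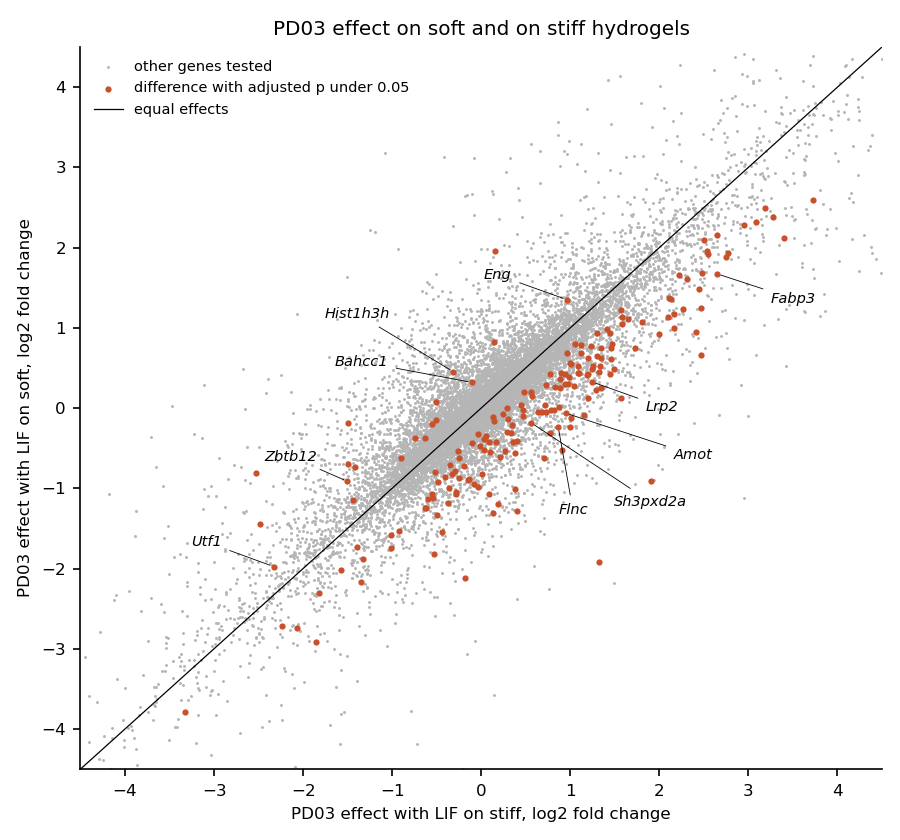
Log2 fold change with PD03 on soft hydrogels (y axis) against that on stiff hydrogels (x axis) in serum + LIF at 48 h, 1 dot per tested gene, with the line of equality, axes limited to 4.5 either way and 170 genes outside them. Flnc lies at -0.23 on soft and 0.86 on stiff hydrogels, below the line.

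The effect without LIF on soft hydrogels was close in sign for the genes with a 2-fold change. It was taken from 6 libraries in serum + PD03 and 3 in serum, and 2 of the 6 came from another pool. Of the 3217 genes, 3171 had the same sign there and 46 the opposite one. A difference was called for 0.0226% of all genes, 0.00565% with a more positive effect in the presence of LIF and 0.0169% with a more negative one. These 4 genes were Vim, Trh, Ctnnal1 and Hist1h3h. Vim (vimentin) stood at 104, 113 and 102 CPM with PD03 and at 236, 238 and 228 CPM without it in the presence of LIF, and in its absence at 123 to 127 CPM against 197 to 203 CPM (difference -0.45 ± 0.06, adjusted p = 2.19e-05). Trh fell by 4.31 on the log2 scale with LIF and by 3.43 without it (difference -0.88 ± 0.15, adjusted p = 0.00587), and Ctnnal1 by 1.27 and 0.86. Hist1h3h has near-identical copies and is uncertain. The number called ranged from 1 to 8 when single libraries were left out, with 1 and 2 without serum + LIF + PD03 library 1 and 3, 2 and 8 without serum + LIF library 2 and 3, and 2 without serum library 3. DESeq2 called 15 genes and a fit with no filter on low counts 41, and 1301 had an unadjusted p under 0.05.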

How the data were processed

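RNA was sequenced from mESCs with a NuGen kit, per the labels. The authors aligned reads to GRCm38 with STAR 2.5.2a, counted them per gene with htseq-count on Ensembl 87 annotation, and deposited raw read counts as whole numbers without normalisation. How strand and multiply matching reads were treated was not stated, so counts of genes with near-identical or overlapping copies are uncertain. Each of the 36 columns named its group but no replicate, so library numbers are only names.

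The analysis used edgeR 4.0.16 in R 4.3.3. Genes were kept by filterByExpr by group (17702 genes, 99.921% of all counts) and libraries scaled by TMM. All 36 libraries entered 1 quasi-likelihood fit with a coefficient for each group and no other term (common biological coefficient of variation 5.98%), and contrasts were tested with glmQLFTest, two-sided, with Benjamini-Hochberg adjustment over all tested genes and a threshold of 0.05. CPM are on TMM-scaled library sizes, and SE is the absolute log2 fold change over the square root of F. This SE is too small for large changes at low counts. For Spry4 it was 0.13 on each substrate but 0.35 for the difference between them. The interaction contrasts subtracted the effect on stiff hydrogels, or without LIF, from that on soft hydrogels with LIF. Alternatives were no filter, RLE or upper quartile scaling, DESeq2 1.42.0, a fit of the compared groups alone and leaving out each library. The code was tested on simulated data. Replicate libraries were checked for duplicates, and the chi-square per gene within the compared groups was 6.81 to 10.4, above sampling noise.

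Coordinates are from GENCODE M21 (GRCm38), and promoter windows from RefSeq (GRCm38.p6). CArG is the SRF element, and motifs were searched on both strands. Named genes were the 12 per direction with the largest fold change among called genes with no overlap and at least 5 CPM on average in the higher group, the 5 per direction with the largest CPM difference, members of the gene lists, and the 5 per sign with the smallest interaction p. Predicted gene models were left out. The comparison, the gene lists and the rules were chosen with earlier results of these data known. Spry3 and Dux were not matched in the table, and list members with too few counts were not tested. Some list members are not reported here by name. Counting intervals cover counting error only, and their ratios use raw library totals without TMM.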

Additional observations from a re-analysis of the deposited data

Results flagged for a closer look

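A difference between the effect of PD03 on soft and on stiff hydrogels in serum + LIF was called for 189 genes. The log2 differences (soft minus stiff) of those with the smallest p were -0.91 for Lrp2, -0.97 for Fabp3, -1.10 for Flnc, -1.01 for Amot and -0.74 for Sh3pxd2a, and in the other direction 0.42 for Bahcc1, 0.76 for Hist1h3h, 0.59 for Zbtb12, 0.35 for Utf1 and 0.39 for Eng. The count was 114 without the soft serum + LIF library 2. The substrates came from different pools at 48 h and cannot be told apart from them.

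A difference between the effects with and without LIF on soft hydrogels was called for 4 genes. The log2 differences (with LIF minus without) were -0.45 for Vim, -0.88 for Trh, -0.41 for Ctnnal1 and 0.73 for Hist1h3h. The calls of 3 of these genes ended when single libraries were left out, with adjusted p-values of 0.0757 for Trh (without serum + LIF + PD03 library 1) and up to 0.128 for Ctnnal1 and 0.173 for Hist1h3h (both without soft serum library 3). The number of genes in this difference ranged from 1 to 8 over the libraries left out.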

How the results depend on the processing

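The number of genes called on soft hydrogels (9626) was 8764 to 9723 under no filter, RLE and upper quartile scaling, DESeq2 and a fit of the compared groups alone, and 8928 to 9118 with a library left out. The 8764 came from the fit of the compared groups alone. With upper quartile scaling 4611 were higher and 5112 lower. The number with a 2-fold change (3217) was 2766 to 3284, and 3094 to 3128 with a library left out. The difference by substrate (189) was 181 to 271, and 114 to 256 with a library left out, the 114 without soft serum + LIF library 2. The difference by LIF (4) was 41 with no filter on low counts and 15 with DESeq2, and 1 to 8 with a library left out, and the cause was not tested. Of 5568 values of single genes under these alternatives, 5357 kept direction and side of the threshold, 165 lost the call, 46 gained it and 0 turned in sign with a call. The median log2 fold change of all genes was 0.00298, and upper quartile scaling moved it the most, to -0.0352. Low genes are limited by depth, since 1 count was 0.0486 to 0.0654 CPM. No paired analysis was possible because the columns of the table carry no replicate numbers.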
